A study of Cyprinus carpio with 18 samples.

Results

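Among the microRNAs predicted from small RNA of the common carp (Cyprinus carpio), 82 were found at hatching and in the larva and were listed in no library of an earlier stage. They were chosen by 3 conditions on the deposited counts. Their sequence had 19 to 23 bases, they were listed in all 6 hatching and larva libraries with at least 200 counts summed over them, and they were absent from the lists of all 12 earlier libraries. The 82 stand among 2742 predicted microRNAs and 2888 microRNAs in all. The absence before hatching and the presence at hatching and in the larva are therefore what chose them and not a finding. The limit of 200 used the raw counts that are also tested, and larva 3 was the deepest library. A sequence could therefore pass it mainly through its larva counts, so the choice is not independent of the difference between larva and hatching. No such difference was required of the members, and it is the difference tested here. They are numbered HL1 to HL82 from the highest to the lowest summed count.

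The carp were wild-type fish of the selected FFRC No.2 strain, and embryos came from natural spawning, with no treatment named in the labels. Larvae at 1 day post-hatching and embryos at hatching (64 hours post-fertilization) are the stages described. The earlier stages were cleavage at 2 hours, blastocyst at 6 hours, gastrulation at 12 hours and organ formation at 20 hours. Each stage has 3 libraries, from RNA that was pooled in equal amounts within a stage. The labels name no separate spawnings or batches behind these libraries, so p-values measure only the spread between libraries, which may be technical. In pooled RNA of embryos or larvae, fewer cells of a type and less RNA per cell cannot be told apart.

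Depth differed widely between the stages. The larva libraries held 5642188 to 8427601 listed counts and the hatching libraries 4964459 to 6694561, while the 12 earlier libraries held 60779 to 438398. Larva 3 stood apart from the other larva libraries. The chi-square per degree of freedom over microRNAs was 560 and 551 when larva 3 was set against larva 1 and larva 2, against 74.3 between larva 1 and larva 2 and 50.5 to 192 between hatching libraries. Some results that rest on larva 3, and not all, are given with and without it.

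A microRNA is cut from one arm of a hairpin transcript by the nucleases Drosha and Dicer and is loaded into an Argonaute protein. Bases 2 to 8 from its 5′ end, the seed, do most of the pairing with target messages, so that a shift at the 5′ end changes the seed while a change at the 3′ end leaves it as it is. Prediction programs look for reads that pile up on one arm of such a hairpin, often with a rarer product of the other arm, and the short double strand that Dicer leaves has overhangs at both 3′ ends. Around hatching, fish embryos are known to express many microRNAs of differentiated tissues. The files give each predicted microRNA only as its sequence, without a gene, a hairpin or a genome position, and no reference set of microRNA sequences was used here, so no member is given a name or a target.

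The 12 members with the most counts, in that order, are shown with the seed in capitals, because they hold the values on which most of the description turns. They are written 5′ to 3′ with T, as deposited.
HL1: aCGGGTTAggttcttgggag
HL2: aCCATCGAccgttggctgtgccc
HL3: tGATATGTttgatattcggttg
HL4: tCGGTACActtgtgtttgacct
HL5: cCTGTTCTtggttacttgcact
HL6: tCGAAACCagatcaagcctaat
HL7: cACAGCTGtgggtttctgtgct
HL8: cATCTTACctggcagtgcttga
HL9: tTAACCATtgaattccatagta
HL10: aTGACATCaaagtacggcgaga
HL11: tGATGTCGcacctgagcacat
HL12: cCTATTCTtgattacttgtttc
Their 12 seeds all differ.

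The 82 members were a small and uneven part of the small RNA. Together they had 56413 counts, 0.152% of the counts of the 6 libraries. They made up 0.155%, 0.158% and 0.176% of the listed counts in larva 1, 2 and 3, and 0.144%, 0.126% and 0.141% in hatching 1, 2 and 3. The larva libraries were all above the hatching libraries, with means of 0.163% ± 0.0112 in the larva and 0.137% ± 0.00999 at hatching (SD, n = 3 each), and no test was made of this sum. The 95% Wilson intervals of these shares, which cover counting error only, had their lowest bound at 0.152% in the larva and their highest at 0.147% at hatching. Intervals within a stage lay apart too, with 0.1519% to 0.1583% in larva 1 and 0.1728% to 0.1785% in larva 3. A gap between intervals therefore does not measure the spread between libraries. The sum is weighted to the most counted members. HL1 alone gave 880 of the members' 8749 counts in larva 1 and 333 of 9672 in hatching 1. The separation of the stages thus rests partly on HL1. The share of all predicted microRNAs went the other way. It was 9.40%, 9.25% and 8.25% of the listed counts in larva 1, 2 and 3. In hatching 1, 2 and 3 it was 10.2%, 9.74% and 9.86%. The log2 fold change of larva over hatching was positive for 48 members and negative for 34.

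The reads were spread unevenly over the members. The 10 highest held 41.0% of the members' counts and HL1 alone 6.30%. Only 14 members reached 1000 summed counts, 53 had fewer than 500, and the median was 405.5. A single member had between 9 and 1117 counts in a library, so the less counted members are measured with a large counting error.

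Levels are given in CPM, counts relative to the depth of a library after scaling by the TMM method. HL1 had 156, 147 and 140 CPM in larva 1, 2 and 3, and 49.9, 19.3 and 40.9 CPM in hatching 1, 2 and 3. HL2 had 90.6, 98.6 and 81.9 CPM in the larva libraries and 111, 74.7 and 101 CPM in the hatching libraries. HL3 had 82.7, 129 and 110 CPM in the larva and 57.3, 64.6 and 45.9 CPM at hatching. HL1 and HL3 were thus higher in every larva library than in any hatching library, while the libraries of HL2 overlapped between the stages. HL4 had 93.3, 101 and 80.4 CPM in the larva and 64.5, 56.6 and 52.5 CPM at hatching, again without overlap. HL5 had 47.3, 59.9 and 68.7 CPM in the larva and 64.0, 43.6 and 71.0 CPM at hatching, with overlap. HL6 had 61.8, 49.6 and 7.28 CPM in the larva and 78.9, 44.1 and 70.8 CPM at hatching. For HL6, larva 3 lay far below the other 5 libraries, and larva 1 and 2 lay within the range of hatching.

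Larva 3 stood apart in the next members too. HL7 had 38.9, 37.3 and 93.2 CPM in the larva and 30.9, 30.9 and 25.7 CPM at hatching. HL8 had 44.1, 40.1 and 66.1 CPM in the larva and 31.9, 32.1 and 38.6 CPM at hatching. HL9 had 20.0, 30.6 and 71.2 CPM in the larva and 29.7, 42.2 and 39.0 CPM at hatching. In HL7, HL8 and HL9 the highest library was larva 3. The stages overlapped for HL9 and not for HL7 and HL8. HL10 had 36.8, 37.3 and 25.7 CPM in the larva and 53.1, 31.9 and 54.2 CPM at hatching, with overlap.

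**Figure D1:**
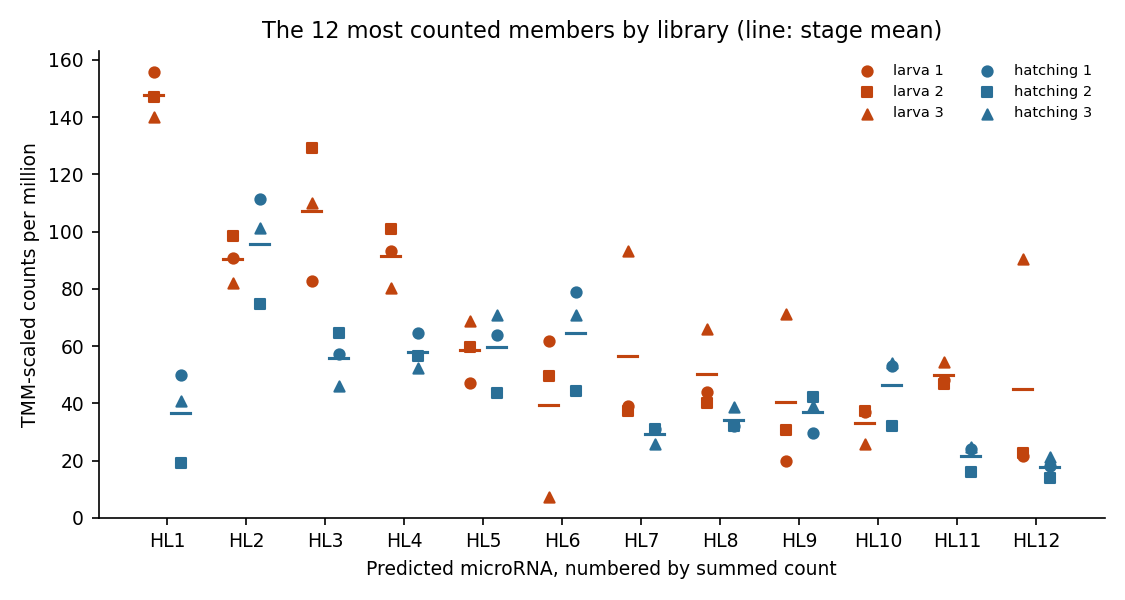
TMM-scaled CPM of the 12 members with the most counts, with larva libraries in red and hatching libraries in blue, 1 point per library and a line at each stage mean (n = 3). HL1, HL3, HL4, HL7, HL8, HL11 and HL12 are higher in every larva library than in any hatching library, and larva 3 (red triangle) stands apart for HL6, HL7, HL9 and HL12.

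The comparison of larva with hatching asked whether members listed at both stages differed in level between them. By the quasi-likelihood test of edgeR, with p-values adjusted by Benjamini-Hochberg over the 612 microRNAs tested, all 82 members were tested and 3 were called at an adjusted p under 0.05, against 8.01% called among all tested. HL1 and HL11 rose in the larva, where 5.23% of all tested rose, and HL19 fell, where 2.78% of all tested fell. A count of 3 in 82 lies under the background share, but that background was not matched for level. Of the 259 predicted microRNAs listed in all 6 libraries, members included, 16 were called. Their median larva level was 9.53 CPM, beside 10.9 CPM for the members. At an unadjusted p under 0.05 there were 15 of the 82 members and 139 of the 612 tested. The median log2 fold change of larva over hatching was 0.11 over the members and -0.01 over all tested.

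The called members are these, and the seed is in capitals for HL19.
HL19: aATTGCACggtatccatctgta
HL1 averaged 148 ± 7.85 CPM in the larva and 36.7 ± 15.7 CPM at hatching (SD, n = 3 each). It was 4.02-fold higher in the larva, with a log2 fold change of 2.01 (SE 0.37) and an adjusted p of 0.0349. HL11 had 48.2, 46.8 and 54.3 CPM in the larva and 24.1, 16.2 and 24.9 CPM at hatching. Its larva libraries were all above its hatching libraries, and the log2 fold change was 1.19 with an SE of 0.25 (adjusted p = 0.0439). HL19 had 13.3, 14.2 and 12.5 CPM in the larva and 38.5, 32.3 and 31.8 CPM at hatching. Every larva library of HL19 was below every hatching library, with -1.36 on the log2 scale (SE 0.23, adjusted p = 0.0276). None of these directions rests on larva 3.

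The sizes of these changes moved little when a library was left out, but the calls did not hold. HL1 had adjusted p-values of 0.0794, 0.131 and 0.0612 without larva 1, 2 and 3, and of 0.0997, 0.0453 and 0.122 without hatching 1, 2 and 3. HL11 had 0.0865, 0.159 and 0.0612 without larva 1, 2 and 3, and 0.137, 0.0730 and 0.121 without hatching 1, 2 and 3. HL19 had 0.0671, 0.0822 and 0.0189 without larva 1, 2 and 3, and 0.120, 0.0767 and 0.124 without hatching 1, 2 and 3. HL1 thus stayed under 0.05 only without hatching 2, HL19 only without larva 3, and HL11 in no such fit, while the log2 fold changes stayed between 1.69 and 2.20 for HL1, 1.00 and 1.37 for HL11, and -1.52 and -1.32 for HL19. Without larva 3 the members called were HL4, which rose (log2 fold change 0.74, adjusted p = 0.0387), and HL19, which fell, against 9.77% called among the 747 microRNAs then tested (6.16% higher in the larva and 3.61% lower). The count over all microRNAs was 34, 4 and 73 without larva 1, 2 and 3, and 7, 9 and 2 without hatching 1, 2 and 3. With the TMM variant that pairs singletons, HL19 was the 1 member called, among 34 calls in 612 microRNAs.

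**Figure D2:**
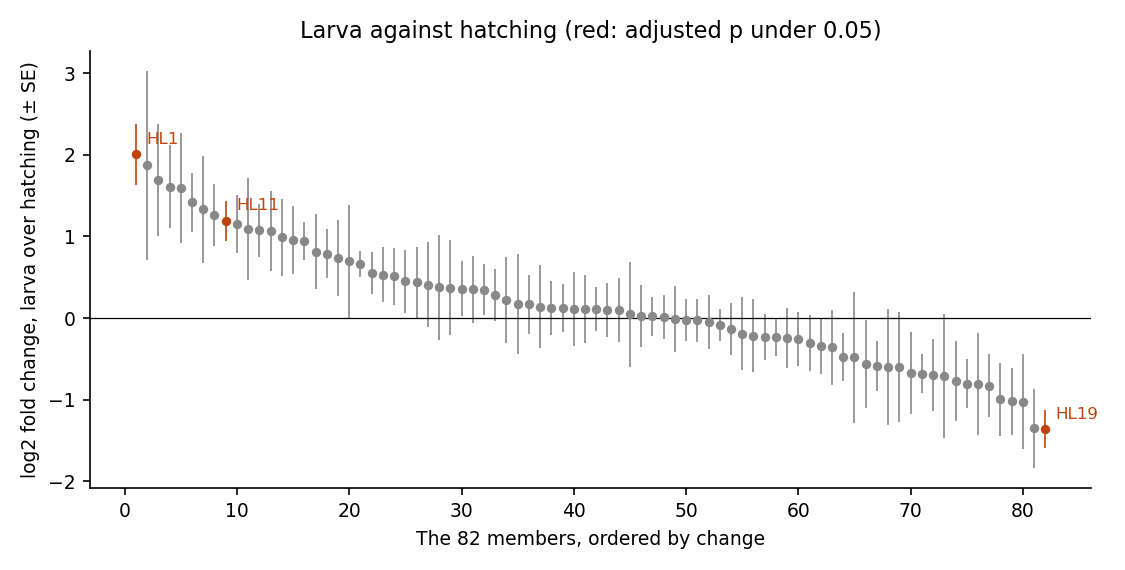
Log2 fold change of larva over hatching for the 82 members, ordered by change, with its standard error from edgeR's quasi-likelihood fit. The 3 members past the adjusted threshold are in red: HL1 at 2.01, HL11 at 1.19 and HL19 at -1.36. The others lie on both sides of 0 with a median over all 82 of 0.11.

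More members were called when the fit was held to microRNAs listed in all 6 libraries. In the fit above a microRNA unlisted in a library enters as 0 counts, and its common biological coefficient of variation was 0.807. With the 401 microRNAs listed in all 6 libraries, a setting chosen after seeing the data, 11 members were called, of which 9 rose and 2 fell. The background was then 24.9% called, 15.7% higher in the larva and 9.23% lower, so 11 of 82 again lies under it. The 401 had a higher median larva level, 33.6 CPM beside 10.9 CPM for the members. With DESeq2, 13 members were called, 10 higher and 3 lower, against 20.3% among all tested (12.7% higher and 7.52% lower), and 304 of the 612, among them 26 members, had no adjusted p and could not be called. In simulated counts for these 6 libraries, the test on 612 microRNAs called 1 of 50 microRNAs raised 2-fold and 18 of 50 raised 4-fold. The raised microRNAs were drawn from all 612, including ones unlisted in some libraries. Every member was listed in all 6, so the rate for members was not simulated and cannot be read from these values.

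The 8 members called in the fit to listed microRNAs and not among the 612 are given with their values in the 6 libraries. The values of HL3 and HL4 stand above, and the other sequences follow, with the seed in capitals.
HL15: tTACAATTaaaggatatttctt
HL18: aGACATCAattaaatctgtgc
HL22: tAATACTGcctggtaatgccat
HL31: tCAAATGGaccattgacattct
HL53: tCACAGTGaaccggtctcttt
HL77: tTAATATCtcacaattttgact
HL15 had 20.5, 28.5 and 61.6 CPM in the larva and 15.9, 9.26 and 11 CPM at hatching. HL18 had 26.6, 22.4 and 47.3 CPM in the larva and 14.4, 15.0 and 13.9 CPM at hatching. HL22 had 20.9, 18.5 and 29.2 CPM in the larva and 13.04, 10.8 and 8.68 CPM at hatching. In each of these the stages did not overlap and larva 3 was the highest library. HL31 had 14.3, 15.4 and 23.1 CPM in the larva and 5.70, 9.85 and 6.37 CPM at hatching. HL53 had 11.9, 13.03 and 14.9 CPM in the larva and 4.35, 3.74 and 6.75 CPM at hatching. HL77 had 3.72, 4.67 and 1.76 CPM in the larva and 10.3, 7.29 and 8.30 CPM at hatching. HL31 and HL53 were higher in all larva libraries and HL77 was lower in all of them.

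With listed microRNAs alone, HL15 had the highest log2 fold change of these 8, at 1.56 (SE 0.44, adjusted p = 0.0333), and HL77 was the one that fell, at -1.41 (SE 0.40, adjusted p = 0.0343). HL53 rose by 1.37 (SE 0.33, adjusted p = 0.0211) and HL31 by 1.23 (SE 0.33, adjusted p = 0.0267). HL4 had the smallest rise, 0.62 (SE 0.19, adjusted p = 0.0485). In the fit to all 612 microRNAs these 8 had adjusted p-values of 0.0679 to 0.174. Without larva 3 in that fit, HL15 had a log2 fold change of 1.02 in place of 1.61, which is the largest shift among them. The fit to listed microRNAs was not run without larva 3.

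Over all members, the 3 larva libraries lay above the 3 hatching libraries for 16 members, against 18.6% of the microRNAs tested. They lay below for 10 members, against 18.1%. The stages overlapped for the other 56. The members that do not overlap in either direction were 26 of 82, a share near the background.

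The spread within the larva came largely from larva 3. It was the highest of the 6 libraries for 31 members and the lowest for 27, which is 70.7% of the members, beside 70.3% of all microRNAs listed in the 6 libraries. Larva 3 was more than 2-fold above the mean of larva 1 and larva 2 for 15 members and more than 2-fold below it for 13. Together these are 34.1% of the members, beside 24.2% of all microRNAs listed in the 6 libraries and 30.5% of the predicted ones. Larva 2 and larva 1 differed by more than 2-fold for 3 members (3.66%), beside 4.24% and 5.79%. These backgrounds had no limit on summed counts, while members had to reach one. Larva 3 was the deepest library, so a sequence high in larva 3 could become a member through it. The higher share of members with a gap above 2-fold in larva 3 may partly follow from that choice, which was not tested.

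The members with the widest gaps are HL43, HL45, HL6 and HL28, whose sequences are shown with the seed in capitals where not given above.
HL43: aATGACTTgtcttaaagggactt
HL45: tTGCCGGTagccattgacttct
HL28: tAGGACCAgcgcatgaccagct
HL43 had 2.12, 4.02 and 36.8 CPM in larva 1, 2 and 3, and 5.40, 3.74 and 2.51 CPM in hatching 1, 2 and 3. HL45 had 13.3, 12.1 and 1.51 CPM in the larva and 12.0, 9.07 and 16.4 CPM at hatching. HL28 had 19.8, 15.8 and 3.14 CPM in the larva and 25.0, 12.8 and 20.6 CPM at hatching. Larva 3 was thus 12.0-fold above the mean of the other larva libraries for HL43, and that mean was 8.42-fold above larva 3 for HL45, 7.65-fold for HL6 and 5.67-fold for HL28. For HL43 the log2 fold change of larva over hatching was 1.88 (SE 1.16) with larva 3 and -0.34 (SE 0.51) without it, and neither was called by edgeR's quasi-likelihood test (adjusted p = 0.447 and 0.860). Of the 398 summed counts of HL43, 293 lay in larva 3, so HL43 passed the limit on summed counts largely through that library. The source of the gap in larva 3 was not tested.

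**Figure D3:**
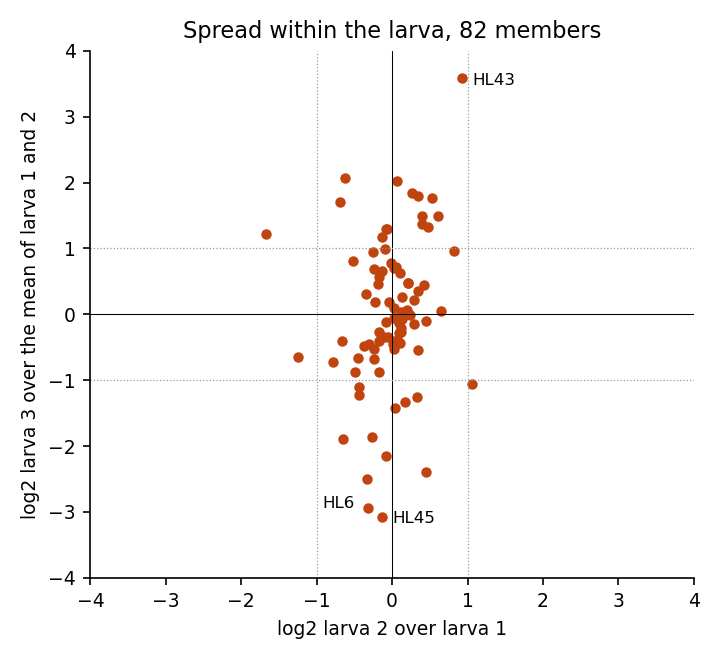
Differences within the larva for the 82 members, 1 point each, on log2 scales: larva 2 over larva 1 (x axis) against larva 3 over the mean of larva 1 and larva 2 (y axis), with dotted lines at 2-fold. The points spread much further along the y axis, up to 3.58 for HL43 and down to -3.07 for HL45.

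Some members are end forms of a more abundant predicted microRNA, which may be listed earlier. HL1 is the shorter form of a 22-base sequence with the same seed, and HL36 is shifted by 1 base against a 22-base sequence, which gives it another seed. The pairs are shown with the seeds in capitals.
HL1: aCGGGTTAggttcttgggag
22-base form of HL1: aCGGGTTAggttcttgggagct
HL36: cTATACAActtactgtctttcc
shifted form of HL36: tATACAACttactgtctttcct
The 22-base form of HL1 had 85702 counts over the 6 libraries, beside 3554 for HL1, and it was listed in 9 earlier libraries with 288 counts. On the log2 scale it was higher in the larva by 0.63 (SE 0.21, adjusted p = 0.155), which was not called. HL1 made up 4.81%, 4.86% and 5.49% of both forms in larva 1, 2 and 3, and 2.29%, 1.43% and 2.04% in hatching 1, 2 and 3. The share was higher in every larva library, with means of 5.05% ± 0.377 in the larva and 1.92% ± 0.445 at hatching (SD, n = 3 each). The difference was 3.13 percentage points, and an exact two-sided permutation test gave p = 0.1, the smallest value that 3 against 3 libraries allow. The lowest Wilson bound in the larva was 4.51% and the highest at hatching was 2.55%. These bounds cover counting error only. Within hatching, the intervals of hatching 1 (2.061% to 2.548%) and hatching 2 (1.172% to 1.735%) lay apart too.

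The proportion of the end forms of HL36 went the other way. HL36 made up 13.7%, 12.9% and 9.11% of both forms in larva 1, 2 and 3, and 26.4%, 23.8% and 27.6% in hatching 1, 2 and 3. Its shifted form had a larva over hatching log2 ratio of 0.59 (SE 0.15, adjusted p = 0.0697), while HL36 had -0.80 (SE 0.30, adjusted p = 0.189). The mean share was 11.9% ± 2.45 in the larva and 25.9% ± 1.95 at hatching (SD, n = 3 each), a difference of -14.0 percentage points with p = 0.1 in the exact two-sided permutation test, again the smallest possible. The highest Wilson bound in the larva was 17.3% and the lowest at hatching was 19.3%, again for counting error only. These comparisons of forms were chosen after their values were seen.

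**Figure D4:**
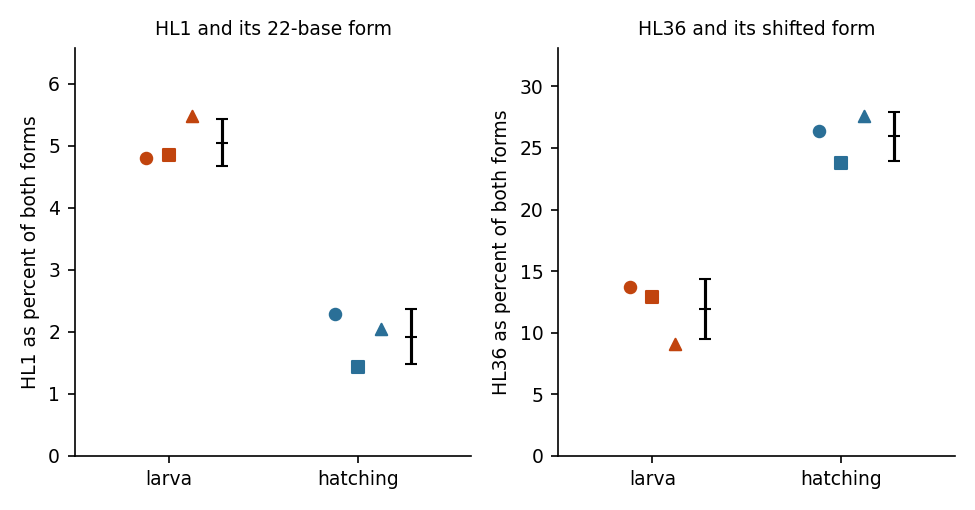
Share of HL1 among the counts of HL1 and its 22-base form (left) and of HL36 among HL36 and its shifted form (right), in percent per library, with larva in red, hatching in blue, and the mean ± SD of 3 libraries in black. HL1 is the larger share in the larva, with 4.81% to 5.49% against 1.43% to 2.29% at hatching, and HL36 the smaller, with 9.11% to 13.7% against 23.8% to 27.6%.

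HL25 shows how an end form bears on the absence from earlier lists. Its own sequence, a form shorter by 1 base at the 3′ end and a form of equal length with 1 mismatch are shown with the seed in capitals, which all of them share.
HL25: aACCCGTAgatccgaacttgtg
shorter form of HL25: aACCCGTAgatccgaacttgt
form of HL25 with 1 mismatch: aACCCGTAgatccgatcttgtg
The shorter form was listed in 9 earlier libraries with 149 counts in all and in none of the 6 larva and hatching libraries. HL25 was listed in these 6 and in no earlier library, with 16.6, 18.2 and 16.6 CPM in the larva and 18.7, 13.6 and 15.2 CPM at hatching. The stages overlapped. So the seed was present in the lists of earlier stages, on that shorter sequence among others. The form with 1 mismatch was also listed earlier, in 2 libraries with 18 counts in all. It is not an end form, and without positions it is not known whether it comes from the same gene as HL25. HL25 made up 14.6% ± 3.88 of its own and the mismatched form's counts in the larva and 16.9% ± 0.780 at hatching (SD, n = 3 each, p = 0.4 in the exact two-sided permutation test). The larva shares were 16.1%, 17.4% and 10.2% in larva 1, 2 and 3, and the difference of -2.34 percentage points was -0.128 without larva 3. How reads shared by such forms were assigned is not given in the sources used here.

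HL16 gave the same picture with a longer form. HL16 is shown beside the form that is longer by 1 base at the 3′ end, with the seed in capitals.
HL16: gTTTTTTTaggttttgatttt
longer form of HL16: gTTTTTTTaggttttgattttt
The longer form was listed in 5 earlier libraries with 49 counts and in no larva or hatching library. Over all members, 34 had a predicted microRNA within 2 mismatches or end shifts and 48 had none. For 10 members such a sequence was listed at an earlier stage, and for 7 it differed in its ends alone. In HL6, HL16, HL17 and HL25 the form listed earlier was in no larva or hatching list.

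Depth limited what an unlisted member means at the earlier stages. The lists begin at 5 counts. If each member had held the same share of the counts at the earlier stages as in the 6 larva and hatching libraries, 39 of the 82 would have reached 5 counts in at least 1 earlier library and 43 in none. For those 43, a level equal to that of larva and hatching would be expected under 5 counts in every earlier library, so it was not reliably detectable at this depth. By stage, 10 would have reached 5 counts at cleavage, 39 at the blastocyst stage, 20 at gastrulation and 10 at organ formation. HL1 and HL2 would have done so in all 12 libraries, with up to 39.9 and 40.8 expected counts. The number was 11 members when the totals were scaled by TMM.

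**Figure D5:**
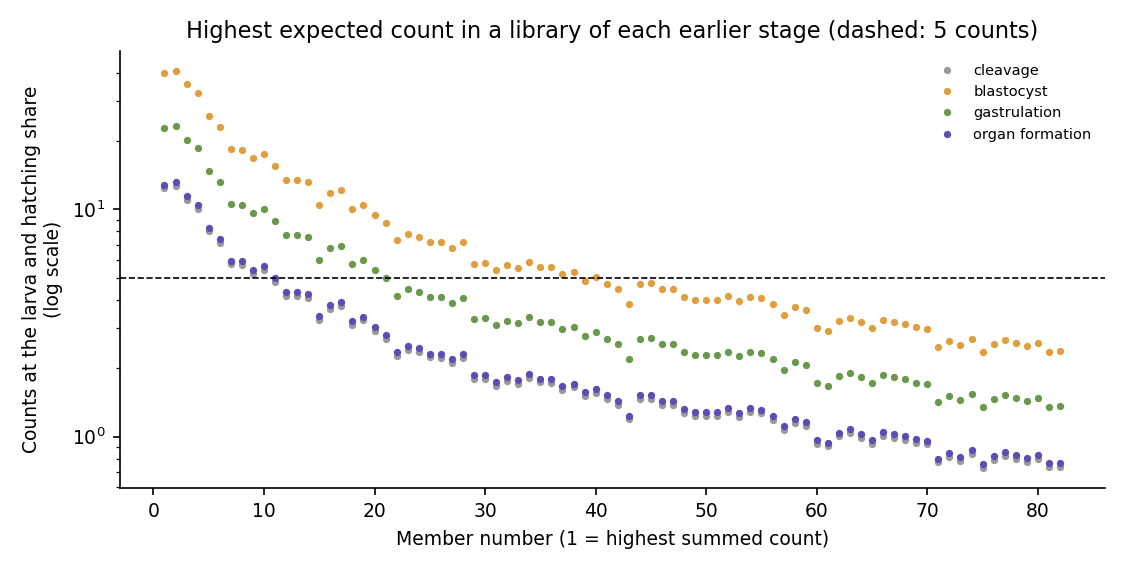
Highest count expected in a library of each earlier stage if a member kept its share of larva and hatching counts, on a log axis against member number, with 1 point per stage and a dashed line at the listing minimum of 5 counts. Blastocyst libraries, the deepest of the earlier ones, would list 39 members, and none of HL41 to HL82 reaches the line.

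Being unlisted may also not always stand for under 5 counts, since the lists give no count for an unlisted sequence. Among predicted microRNAs listed in 5 of the 6 larva and hatching libraries, 138 in number, 14 had at least 50 counts in each of the 5, and 7 of these were unlisted in larva 3. The most abundant of them is shown because it makes the gap plain, with its seed in capitals.
example: aGAATTGTgcctggacatctgt
It had 1247 and 1260 counts in larva 1 and 2 and 4085, 3094 and 3341 in hatching 1, 2 and 3, and was unlisted in larva 3. For 4 of the 14, another end form was listed in that library. No fold change over the earlier stages is therefore given for any member.

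The members resembled other predicted microRNAs in most sequence features. Of the 82, 53 (64.6%) had 22 bases, beside 46.4% of the 2370 other predicted microRNAs of 19 to 23 bases. Among the 80 of these that met the same conditions but were also listed earlier, 61.25% had 22 bases. Of the members, 20 had 21 bases, 8 had 23 and 1, HL1, had 20. The first base was T in 40 members (48.8%), beside 48.1% of the 2370 others, and the median share of G and C was 45.5% in both.

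Seeds were hardly shared within the set. The 82 members had 79 distinct seeds, and 3 seeds were each found in a pair of members. The pairs are shown with the seed in capitals.
HL8: cATCTTACctggcagtgcttga
HL41: cATCTTACctggcagtgcttgg
HL20: tGCCTACTgagctgattacagt
HL42: tGCCTACTgagctgataacagt
HL44: aTGGAAGTcaatggctgctgtc
HL54: aTGGAAGTcaatgggaaccact
HL8 and HL41 differ by 1 mismatch, as do HL20 and HL42, so reads could be split between them and their single values are uncertain. HL41 had 10.4, 12.1 and 15.7 CPM in the larva and 7.496, 7.49 and 11.8 CPM at hatching. HL20 had 21.1, 21.4 and 34.5 CPM in the larva and 18.4, 21.3 and 13.5 CPM at hatching, and HL42 had 11.3, 11.3 and 19.4 CPM in the larva and 7.496, 9.07 and 3.47 CPM at hatching. In each of these 3 the highest library was larva 3, as in HL8. Counted over all predicted microRNAs, members included, 37 members shared their seed with another one, and 18 with one listed at an earlier stage.

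HL44 and HL54 belong to a wider group built on a common stretch of 11 bases. GAAGTCAATGG or its complement CCATTGACTTC, searched on both strands, occurs in 5 members (6.10%), beside 4.56% of the 2370 other predicted microRNAs of 19 to 23 bases. The stretch was chosen after the sequences were seen, and it is in capitals.
HL44: atgGAAGTCAATGGctgctgtc
HL45: ttgccggtagCCATTGACTTCt
HL54: atgGAAGTCAATGGgaaccact
HL74: taataGAAGTCAATGGgaact
HL75: tatgGAAGTCAATGGggaacat
Over all lengths, 113 predicted microRNAs held it, of which 111 were listed at hatching or in the larva and 7 at an earlier stage. The corresponding numbers over all 2742 predicted microRNAs were 2149 and 872. The stretch was taken from HL44, and members were chosen for late listing only, so part of this contrast follows from the choice. Depth limits it as well. The 113 had 5389 counts in all over the 6 hatching and larva libraries, and the earlier libraries were far shallower. At such low levels a listing of at least 5 counts could not be relied on there. The 2742 were not matched for level, so the contrast cannot show when the group appears. HL44 had 9.74, 6.92 and 4.52 CPM in the larva and 12.1, 18.3 and 12.5 CPM at hatching, every larva library being lower. HL54 had 9.91, 4.18 and 4.52 CPM in the larva and 13.2, 18.5 and 6.18 CPM at hatching, with overlap. HL74 had 5.66, 5.79 and 2.13 CPM in the larva and 7.95, 8.08 and 7.14 CPM at hatching, and HL75 had 4.25, 4.02 and 10.2 CPM in the larva and 7.95, 2.56 and 3.67 CPM at hatching. None of the 5 was called.

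A second stretch, GGACCATT, was found in 4 members (4.88%), and it or its complement AATGGTCC in 1.77% of the other predicted microRNAs of these lengths. It too was chosen after the sequences were seen, and it is in capitals.
HL31: tcaaatGGACCATTgacattct
HL47: tctcaagtGGACCATTgacacc
HL55: tGGACCATTtctgtgatgctct
HL81: aagtGGACCATTaacactcct
Of these only HL31 was among the 11 members called in the fit to listed microRNAs. HL81 lies just above the limit of 200 counts, with 5.49, 4.67 and 8.15 CPM in the larva and 4.20, 6.11 and 4.05 CPM at hatching.

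Members seldom paired with one another. Among 3321 pairs of members, 5 had a complementary stretch of at least 11 bases, and the median longest stretch was 4. The 2 longest, of 13 bases each, are shown with the paired stretch in capitals.
HL44: atgGAAGTCAATGGCTgctgtc
HL45: ttgccggtAGCCATTGACTTCt
HL48: aatgCTGCTGACGTGTTttct
HL76: caaagatAACACGTCAGCAGt
The other pairs, with stretches of 12, 11 and 11 bases, were HL45 with HL74, HL54 and HL75, through the stretch shown above. HL48 had 5.49, 7.24 and 17.9 CPM in the larva and 8.995, 7.69 and 9.65 CPM at hatching, and HL76 had 6.37, 6.11 and 4.89 CPM in the larva and 6.60, 3.74 and 7.14 CPM at hatching. Larva 3 was the highest library for HL48 and not for HL76.

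Outside the set, 22 members had a predicted microRNA that was complementary over at least 13 bases, and for 15 the stretch reached 16. With 1 partner from outside the set counted for each member, the partner had fewer counts than the member in all 22. Members needed at least 200 counts, which partners did not, so the lower count of a partner partly follows from that choice. For HL31, HL44, HL45, HL47, HL54, HL74 and HL75 the pairing ran through 1 of the 2 common stretches described above. Over all lengths, 113 and 47 predicted microRNAs held these stretches on either strand. How often other predicted microRNAs have such a partner was not counted. In 9 of the pairs each 3′ end reached 1 to 3 bases past the 5′ end of the other strand, whether or not the bases next to the stretch paired. Of these 9, 3 are shown with the paired stretch in capitals.
HL12: CCTATTCTTGATTACTTGTTtc
partner of HL12: AACAAGTAATCAAGAATAGGcc
HL52: caCAATATCGCGTTCATAATct
partner of HL52: ATTATGAACGCGATATTGcata
HL22: TAATACTGCCTGGTAATGccat
partner of HL22: atCATTACCAGGCAGTATTAga
The partner of HL12 had 252 counts in 5 of the 6 libraries, beside 1286 for HL12, the partner of HL52 had 115 beside 350, and the partner of HL22 had 13 beside 653. HL12 had 21.6, 22.7 and 90.4 CPM in the larva and 18.1, 13.8 and 21.4 CPM at hatching, with larva 3 4.08-fold above the mean of the other larva libraries. Complementary sequences alone do not show that both strands came from one hairpin, since no hairpin or position was given.

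The limit of 200 counts cut through a continuous range. Just inside it were HL80 with 208, HL81 with 205 and HL82 with 200 summed counts. Just outside it were sequences with 198, 193 and 192. A limit of 100 counts would have given 130 members and a limit of 500 counts 29.

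The members differed in level from predicted microRNAs that met the same conditions but were also listed earlier. There were 80 of these. Their median level was 135 CPM in the larva and 96.1 CPM at hatching, against 10.9 CPM in the larva and 10.8 CPM at hatching for the 82 members. A lower level makes it less likely that a sequence is listed in a shallow library, so the choice of members itself bears on this gap. Of the 80, 13 were called between larva and hatching by edgeR's quasi-likelihood test, with a median log2 fold change of -0.20, against 3 of the 82 members and 0.11. That difference in calls was not tested.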

How the data were processed

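Small RNA was sequenced in 18 carp libraries, 3 for each of 6 stages, as 50 bp single-end reads, per the labels' protocols. Raw counts were deposited by the authors for each mature microRNA and library, without normalization, with a TPM table of the authors, which gave library totals as an alternative and was not used for tests. The submitters' processing notes name FastQC and edgeR. Neither the aligner nor the genome build nor the prediction program is given in the sources used here. Predicted microRNAs are listed from 5 counts up, and unlisted ones were taken as 0.

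The members, lists and tests were chosen with earlier results of these data known. Larva and hatching libraries were compared with edgeR 4.0.16 (R 4.3.3): TMM scaling, filterByExpr by stage (count minimum 10), glmQLFit (robust) and glmQLFTest with 4 residual degrees of freedom, and Benjamini-Hochberg adjustment over the 612 microRNAs tested at 0.05. Adjusted p-values come from it where no other tool is named. Named with values are the 10 members with the most counts, the largest changes among called members without overlap, those nearest the limit of 200 counts, and the 5 longest complementary pairs; seed groups of 3 or more did not occur, and members named for other reasons were chosen after their values were seen. Alternatives were other scalings and filters, DESeq2 1.42.0, all 18 libraries, a replicate block, each library left out, and, added after seeing the data, microRNAs listed in all 6 libraries. Wilson 95% intervals used scipy 1.17.1. The test was checked on simulated counts. Without molecular identifiers, reads are not separate molecules, and intervals cover counting error only.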

Additional observations from a re-analysis of the deposited data

How the results depend on the processing

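The counts of calls depended on the fit. HL43, which was not called, changed sign without larva 3 (1.88 and -0.34). Of the 12 other members given with a fold change none changed sign: of their values under the alternatives, 137 kept their side of the threshold, 29 lost and 17 gained the call. Members called, in all, higher and lower in the larva, were 3, 2 and 1. They became 1, 0 and 1 with singleton pairing, 1, 1 and 0 without a filter, 13, 10 and 3 with DESeq2, 11, 9 and 2 with microRNAs listed in all 6 libraries, and 0, 0 and 0 with all 18 libraries, the same microRNAs tested or the filter redone. With the filter redone only 13 members were tested, and in the other fits just named all 82. At a minimum of 10 CPM, 47 members were tested and 3 were called. Leaving out each library gave 0 to 2 of 82 members, 0 to 1 higher and 0 to 1 lower. Over all microRNAs, 49 calls of 612 became 34 of 612 with singleton pairing and 47 of 2293 without a filter. They were 77 of 308 at a minimum of 10 CPM and 124 of 612 with DESeq2. With microRNAs listed in all 6 libraries they were 100 of 401. With all 18 libraries they were 2 of 612, and 1 of 328 with the filter redone. With a library left out they were 2 to 73, among 719 to 785 tested. The adjusted p over all alternatives ranged from 3.70e-06 to 0.414 for HL1, 6.19e-05 to 0.737 for HL11 and 1.38e-09 to 0.367 for HL19.

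The replicate numbers did not pair the libraries (correlations of deviations of 0.0141, 0.111 and -0.0757), and with the replicate number as a block 0 members and 0 of all microRNAs were called, beside 6 members and 110 microRNAs at an unadjusted p under 0.05.

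The members' median log2 fold change was 0.11 over all 82. With a library left out it was -0.01 to 0.17, again over all 82. It was -0.12 over the same 82 with all 18 libraries. At a minimum of 10 CPM it was -0.076, but over only 47 members. With all 18 libraries and the filter redone it was -0.26, over only 13 members. The last 2 medians therefore cover other sets of members. The median over all microRNAs tested moved by -0.10 at 10 CPM and by 0.11 without a filter. With all 18 libraries it moved by -0.24, and by -0.16 with the filter redone. The difference in share was 2.89 to 3.32 points for HL1 and -15.1 to -12.6 for HL36 with a library left out. Members expected to be listed earlier were 39, 11 with TMM-scaled totals and 22 at the lowest share. Near-identical sequences were found for 22 members at 1 mismatch or shift and 34 at 2. The set had 82 members, 130 at 100 counts and 29 at 500. The cause of these differences was not tested. In simulated microRNAs drawn from all 612, changes of about 2-fold were mostly not called, and the rate for members was not simulated. Many members have under 100 counts in a library.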
